A study of Mus musculus with 8 samples.

Results

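Type I interferon-stimulated genes, the genes that cells switch on when type I interferon reaches them, were described as a set of 33 genes chosen by symbol. Each of the 33 had a row among the 24028 genes of the deposited tables, and each passed the filter on low counts that 14575 genes passed. RNA was measured in 8 tumours grown from TRAMP-C2 cells, an established prostate adenocarcinoma line from a TRAMP mouse, whose transgene drives a viral oncoprotein in prostate epithelium. Per the labels, 1 M of these cells were placed in the dorsolateral prostate of male, immune-competent C57BL/6 hosts of the same strain, and prostate tumours were taken 30 to 45 days later. The 4 aged hosts were 20 to 24 months old and the 4 young hosts 4 months old, from 19 aged and 20 young mice injected. The groups share the line, strain, sex and site, and no other treatment is labelled. Each tumour carries the number of its own mouse, so that aged 46, aged 47, aged 50 and aged 51 were set against young 36, young 37, young 40 and young 43. How these 4 and 4 were chosen is not given in the sources used here, and all tumours came from 1 line.

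Type I interferons bind a receptor made of IFNAR1 and IFNAR2, whose kinases JAK1 and TYK2 phosphorylate STAT2. Together with IRF9, STAT2 is part of a factor that binds the interferon-stimulated response element (ISRE) in the promoters of many interferon-induced genes, while interferon gamma acts through another element, GAS. In tumours both cancer cells and host leukocytes can make and answer interferon, and a bulk library sums them.

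Sequences upstream of 6 members are shown because they hold, or lack, the element that this factor binds. They are from RefSeq (GRCm38.p6), read 5′ to 3′ on the gene's own strand, and each ends at the base before the annotated start. Capitals mark the ISRE core, searched as GAAA, any 2 bases and GAAA again on both strands, so that on the opposite strand it reads TTTC, any 2 bases and TTTC. Isg15 and Bst2 hold overlapping cores, and Trim25 and Eif2ak2 hold none in the stretch shown.
Ifit1 (chr19:34640759-34640888, + strand): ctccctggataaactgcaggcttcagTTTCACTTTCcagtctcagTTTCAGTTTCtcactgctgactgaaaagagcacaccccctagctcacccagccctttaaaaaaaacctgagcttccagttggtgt
Isg15 (chr4:156200819-156200948, - strand): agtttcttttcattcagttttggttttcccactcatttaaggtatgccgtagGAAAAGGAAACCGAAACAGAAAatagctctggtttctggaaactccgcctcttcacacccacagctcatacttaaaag
Bst2 (chr8:71537473-71537622, - strand): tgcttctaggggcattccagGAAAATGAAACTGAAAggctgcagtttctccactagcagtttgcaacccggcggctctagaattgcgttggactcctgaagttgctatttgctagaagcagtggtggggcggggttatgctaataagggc
Rsad2 (chr12:26456453-26456602, - strand): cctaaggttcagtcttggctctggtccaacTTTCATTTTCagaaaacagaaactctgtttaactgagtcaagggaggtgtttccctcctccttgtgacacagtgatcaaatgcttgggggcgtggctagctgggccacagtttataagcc
Trim25 (chr11:88999273-88999402, + strand): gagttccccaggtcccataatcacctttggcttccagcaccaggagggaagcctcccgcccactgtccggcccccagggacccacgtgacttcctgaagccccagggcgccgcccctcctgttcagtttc
Eif2ak2 (chr17:78882573-78882702, - strand): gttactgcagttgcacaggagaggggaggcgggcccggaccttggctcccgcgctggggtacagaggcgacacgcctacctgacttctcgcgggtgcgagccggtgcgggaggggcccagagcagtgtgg

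The RefSeq table held a window of 250 bases before to 50 bases after the start for 24 of the 33 members, and Dhx58, Zbp1, Usp18, Oas2, Mx1, Mx2, Parp9, Parp14 and Rtp4 had no entry. The ISRE core lay in the windows of 11 of the 24 members (45.8%), against 3.99% of the 27025 genes with a window. These 11 were Bst2, Ddx58, Eif2ak2, Ifih1, Ifit1, Ifit3, Isg15, Oas1a, Oas3, Rsad2 and Stat2. In 3 of the 11, Eif2ak2 among them, no core lay wholly before the start. The GAS letters TTCNNNGAA, which read the same on both strands, lay in 5 of the 24 (20.8%: Bst2, Eif2ak2, Ifi35, Ifit2 and Oas1a), against 9.55% of all genes with a window. Of 17 ISRE core matches in member windows, 1 overlapped a GAS match. A match is a run of letters and not a measured binding site.

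The libraries held 27.1 M to 35.7 M fragments, at which 3 fragments are 0.084 to 0.111 CPM (fragments per 1 M counted). The epithelial markers Epcam, Krt8, Krt18, Krt19 and Cdh1 had a mean log2 CPM from 2.51 in young 43 to 6.72 in aged 50, so young 43 was low in markers of the epithelial cell type that the labels name. Young 36 and aged 50 stood apart by seminal vesicle secretory transcripts, with mean log2 CPM of 13.42 and 11.22 against at most 1.75 in the other 6 tumours. Aged 51 stood apart by skeletal muscle transcripts (4.29, against at most 2.28 in the others). Normal prostate secretory transcripts summed to 11120 CPM in young 37, 3105 in aged 50 and 881 in young 36, against at most 141 CPM in the other 5. The comparison of host groups is therefore also given without these tumours.

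All 33 members had a lower fitted value in tumours of aged hosts than of young hosts, and 0 of 33 passed the test of host age. The median log2 fold change (aged minus young) was -0.43, and the members ranged from -0.87 (Oas1a) to -0.005 (Xaf1). Over all genes tested, 44.7% had a lower fitted value and the median was 0.03. In bulk tumours, fewer cells of a type and less RNA per cell cannot be told apart. The 4 aged tumours spread widely around their lower mean, and the groups overlapped in CPM for every member.

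With edgeR's quasi-likelihood test and Benjamini-Hochberg adjustment over all 14575 genes, the members called were 0 of 33, beside 0% of all genes. The smallest member p was that of Bst2 (edgeR, unadjusted 0.0583, adjusted 0.924). At an unadjusted p under 0.05, edgeR counted 0 members (4.99% of all genes, and 2.66% lower in aged). DESeq2 called 0 members (0.295% of all genes) and counted 1 at an unadjusted p under 0.05, Bst2 (6.02% of all genes, 3.07% lower in aged), with 31 of 33 lower (43.7% of all genes). Limma voom with sample weights called 0 (0.0617%) and counted 14, all lower, at an unadjusted p under 0.05 (12.1% of all genes, 6.28% lower in aged). For 0 members did the groups fail to overlap on the log2 CPM scale, against 3.66% of all genes. The members co-varied, as described further on, so 33 lower values are not 33 separate observations.

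**Figure D1:**
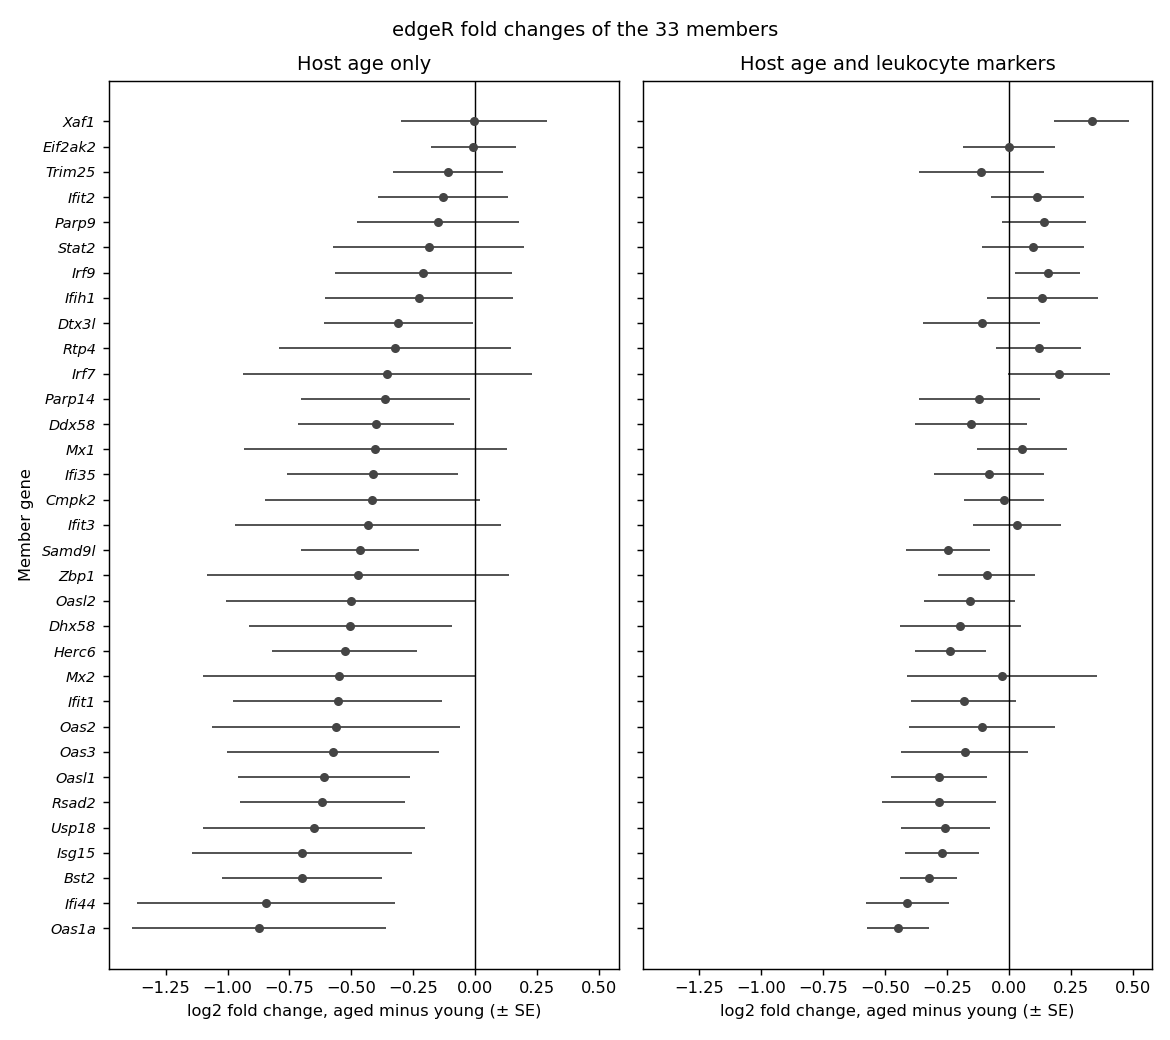
Log2 fold change, aged minus young, of each of the 33 members with its standard error (edgeR), ordered by size, from the fit with host age only (left) and with leukocyte markers as a covariate (right); the vertical line marks 0. On the left all 33 estimates lie below 0, from -0.87 (Oas1a) to -0.005 (Xaf1), and on the right 22 do.

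The size of this difference changed with the tumours included. Without aged 50, all 33 members had a lower fitted value (48.7% of all genes) and the median was -0.94. Then 24 of 33 had an unadjusted edgeR p under 0.05, against 7.78% of all genes (3.98% lower in aged), while 0 were called. Without aged 46, 26 of 33 were lower (46.2% of all genes), the median was -0.19 and 0 members had an unadjusted edgeR p under 0.05 (6.86% of all genes). Leaving out both aged 50 and young 36, the tumours with seminal vesicle transcripts, gave 33 lower (48.5% of all genes), a median of -0.87 and 19 at an unadjusted edgeR p under 0.05 (5.33% of all genes, 2.74% lower in aged), with 0 called. When aged 51 was left out as well, 33 were lower (51% of all genes) with a median of -0.77. The count at an unadjusted edgeR p under 0.05 was then 5 (3.57% of all genes), namely Ifit1, Ifi44, Trim25, Ddx58 and Oasl1, and 0 were called. Without aged 51 alone, 32 were lower (47% of all genes), the median was -0.30 and 0 had an unadjusted edgeR p under 0.05 (4.04%). Without young 36 alone, 31 were lower, beside 44.7% of all genes in the fit with all 8 tumours. The median was then -0.39 and 0 members had an unadjusted edgeR p under 0.05 (535 of 14897 genes). Without young 37, 32 were lower (45%), the median was -0.45 and 0 had an unadjusted edgeR p under 0.05 (3.95%). Without young 43, 32 were lower (43.2%), the median was -0.60 and 2, Bst2 and Rsad2, had an unadjusted edgeR p under 0.05 (3.6%). No member was called in any of these fits.

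The summed level of the 33 members ordered the tumours within each group. It was 627 CPM in aged 46, 1429 in aged 47, 2464 in aged 50 and 978 in aged 51. In young hosts it was 2039 CPM in young 36, 1715 in young 37, 2120 in young 40 and 1342 in young 43. The highest and the lowest of the 8 tumours were thus both aged, with young 43 the lowest young tumour, below aged 47. Aged 46 was the lowest of the 8 tumours on log2 CPM for 29 of 33 members (19.3% of all genes). Aged 50 was the highest for 21 (19.8% of all genes), young 36 for 7, young 40 for 3 and aged 51 for 2. Among young tumours, young 43 was the lowest for 26 members (35.9% of all genes).

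**Figure D2:**
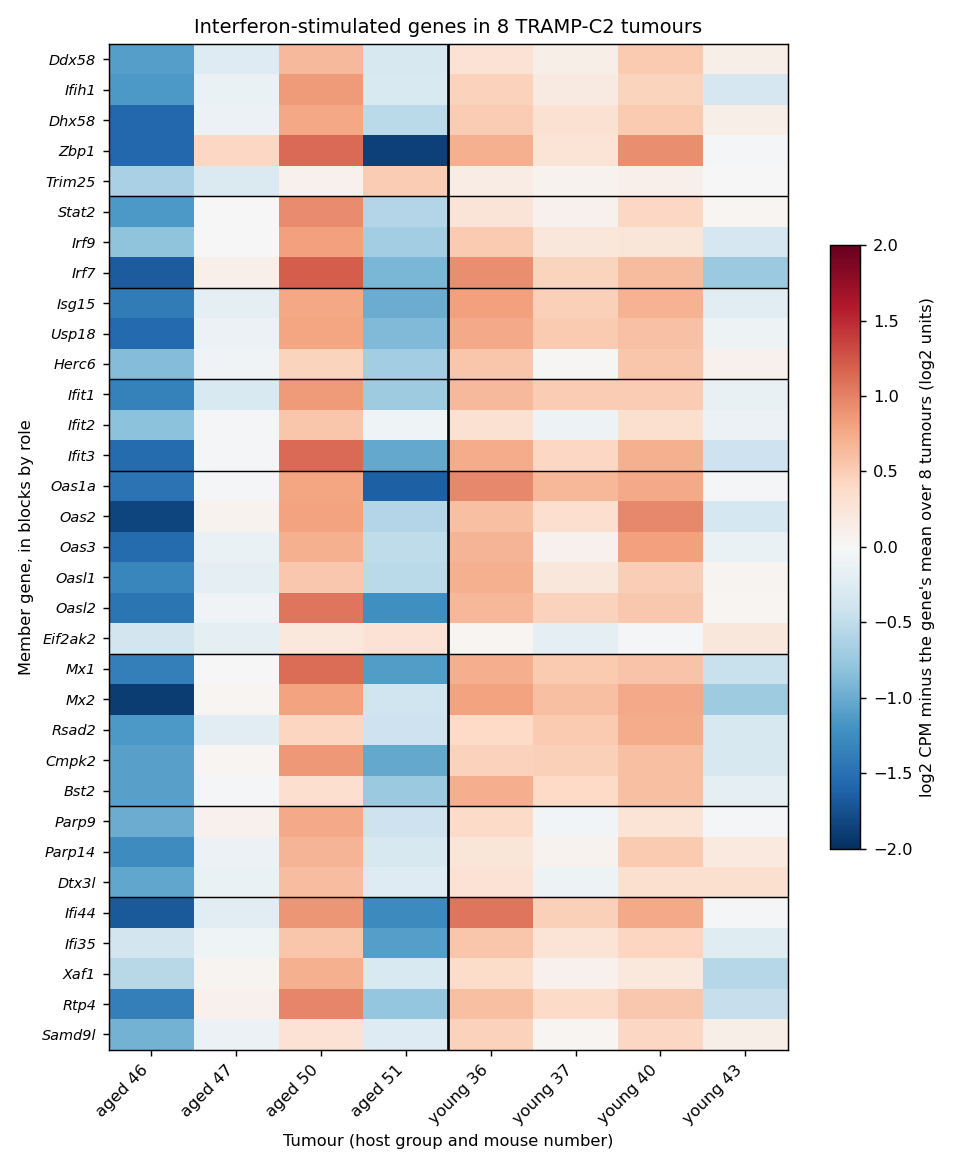
Level of each member in each tumour as log2 CPM minus the member's mean over the 8 tumours; rows are members grouped by role, columns are tumours. Aged 46 is the lowest column for 29 members and aged 50 the highest for 21, while Eif2ak2 and Trim25 break the column pattern.

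The spread was larger among aged than among young tumours for every member. The SD of log2 CPM was larger in the aged group for 33 of 33 members, against 71.9% of all genes. It was also larger for 17 of 17 interferon gamma genes, 32 of 33 pathway genes and 35 of 39 other interferon-induced genes described below. The same held for 57 of 72 cell type markers, with 9 of 9 macrophage and 5 of 5 fibroblast markers but 1 of 5 epithelial markers. As the members co-varied, 33 larger SDs are not 33 separate observations. The highest aged tumour exceeded the lowest by 1.65-fold (Eif2ak2) to 8.72-fold (Zbp1), with a median of 4.42-fold over members. In young tumours this ratio ran from 1.097-fold (Trim25) to 3.03-fold (Irf7), with a median of 1.72-fold. Genes with a fragment in every tumour had medians of 1.66-fold in aged and 1.44-fold in young tumours. Leaving out each tumour in turn gave 31 to 33 members with the larger SD in the aged group.

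Per-tumour values below run in the order aged 46, 47, 50 and 51, then young 36, 37, 40 and 43, in CPM, and coordinates are those of RefSeq on GRCm38. Among the sensors of foreign nucleic acid, Ddx58 (Entrez gene 230073, chromosome 4, 40203777 to 40239825) encodes RIG-I, which recognises RNA with viral ends. It stood at 19.5, 38.2, 71.7 and 33.6 CPM in aged and 51.5, 47.6, 66.05 and 48.6 CPM in young tumours. Aged 46 was lowest and aged 50 highest of all 8, and the log2 fold change was -0.40 ± 0.32 (SE; edgeR, unadjusted p = 0.237). Zbp1 (Entrez gene 58203, chromosome 2, 173206612 to 173218959), a receptor for Z-form nucleic acid that can start necroptosis, had the widest aged range of the 33. Its values were 10.8, 46.7, 77.1 and 8.83 CPM in aged and 53.2, 40.9, 67.1 and 33.4 CPM in young tumours. Aged 46 and aged 51 thus lay far below every young tumour while aged 50 lay above them all, with a log2 fold change of -0.47 ± 0.61. Ifih1, which encodes the long-RNA sensor MDA5, ranged over 12.1 to 53.4 CPM in aged and 22.7 to 40.2 CPM in young tumours (-0.23 ± 0.38 log2). Dhx58, whose product LGP2 modulates both sensors, ranged over 7.74 to 43.7 and 26.9 to 36.6 CPM (-0.50 ± 0.41 log2).

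Trim25 (Entrez gene 217069, chromosome 11, 88999403 to 89020294), a ubiquitin ligase that acts on RIG-I, did not follow the tumour order of the others. It stood at 60.2, 85.2, 110.1 and 135 CPM in aged and 107, 105, 112 and 102 CPM in young tumours. Aged 51, low for most members, had the highest Trim25 value, and the young tumours lay within 1.097-fold of each other. The log2 fold change was -0.11 ± 0.22 and turned to 0.05 without aged 46.

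Among the transcription factors, Irf7 (Entrez gene 54123, chromosome 7, 141263183 to 141266499), the factor that amplifies type I interferon production, had the second highest level per transcript length of the set, at a median of 80.96 FPKM. It stood at 36.5, 136, 294 and 61.4 CPM in aged and 223, 166, 196 and 73.6 CPM in young tumours. The aged and young means were 132 ± 116 against 164 ± 64.9 CPM (mean ± SD, n = 4 each), and the aged values lay on both sides of every young value. The log2 fold change was -0.35 ± 0.58 (edgeR, unadjusted p = 0.559). Stat2 and Irf9, subunits of the ISRE-binding factor, ranged over 17.5 to 82.2 and 22.2 to 75.7 CPM in aged tumours and over 42.7 to 56.9 and 32.9 to 56.4 CPM in young tumours. Their log2 fold changes were -0.19 ± 0.39 and -0.21 ± 0.36.

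In the ISG15 system, Isg15 (Entrez gene 100038882, chromosome 4, 156199424 to 156200818) encodes a ubiquitin-like protein that is attached to other proteins. It stood at 17.96, 45.9, 88.4 and 23.9 CPM in aged and 84.7, 69.2, 84.1 and 43.8 CPM in young tumours. Aged 46 and aged 51 lay below all young tumours, and the aged and young means were 44.1 ± 31.9 against 70.4 ± 19.1 CPM (mean ± SD, n = 4 each). Its log2 fold change was -0.70 ± 0.45 (edgeR, unadjusted p = 0.150). Herc6 (Entrez gene 67138, chromosome 6, 57580992 to 57665136), the main ISG15 ligase of mice, stood at 13.1, 24.9, 35.8 and 14.8 CPM in aged and 35.7, 25.6, 38.4 and 27.01 CPM in young tumours. In 3 of 4 aged tumours it was below every young tumour, and the log2 fold change was -0.53 ± 0.29 (edgeR, unadjusted p = 0.104). Usp18, which removes ISG15 and restrains the receptor, ranged over 8.27 to 46.5 CPM in aged and 24.3 to 41.9 CPM in young tumours (-0.65 ± 0.45 log2).

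The IFIT proteins bind foreign RNA and block its translation. Ifit1 (Entrez gene 15957, chromosome 19, 34640889 to 34650009) stood at 14.4, 32.7, 72.9 and 22.7 CPM in aged and 58.5, 55.1, 57.6 and 35.4 CPM in young tumours. Of the young tumours, 3 lay between 55.1 and 58.6 CPM with young 43 apart, while the aged values ran over a 5.08-fold range. The log2 fold change was -0.56 ± 0.42 (edgeR, unadjusted p = 0.222). Ifit3 (Entrez gene 15959, chromosome 19, 34583119 to 34588982), a partner of IFIT1, stood at 16.5, 51.9, 116 and 23.7 CPM in aged and 81.9, 67.3, 86.8 and 38.5 CPM in young tumours. On TMM-scaled log2 CPM the order of the tumours was that of Irf7, and the log2 fold change was -0.43 ± 0.54. The transcript shares 51.2% of its 50-base stretches with its copy Ifit3b, which had -0.42 ± 0.53, so the split of fragments between them is uncertain. Ifit2 had the narrowest aged range of the 3, 34.3 to 97.8 CPM, and 59.1 to 82.5 CPM in young tumours (-0.13 ± 0.26 log2).

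The OAS enzymes make oligoadenylates that activate RNase L. Oas1a (Entrez gene 246730, chromosome 5, 120896256 to 120907544) had the largest fitted difference of the set. It stood at 12.02, 36.4, 63.8 and 10.8 CPM in aged and 66.7, 56.5, 62.2 and 35.2 CPM in young tumours. Aged 46 and aged 51 lay more than 2-fold below the lowest young tumour, young 43, and the other aged tumours within the young range. The aged and young means were 30.8 ± 24.99 against 55.1 ± 13.9 CPM (mean ± SD, n = 4 each), and the log2 fold change was -0.87 ± 0.51 (edgeR, unadjusted p = 0.124). Oas1a shares 57.6% of its 50-base stretches with Oas1g, which had -0.87 ± 0.55, so its count is uncertain in the same way. Oasl1 (Entrez gene 231655, chromosome 5, 114923143 to 114937911), which restrains translation of Irf7 mRNA in mice, stood at 8.24, 19.7, 32.7 and 14.2 CPM in aged and 33.8, 25.1, 31.6 and 22.6 CPM in young tumours. It had the smallest p of the family (edgeR, unadjusted 0.113), with a log2 fold change of -0.61 ± 0.35. Oas2, Oas3 and Oasl2 had log2 fold changes of -0.56 ± 0.50, -0.57 ± 0.43 and -0.50 ± 0.51, with 5.26-fold to 6.94-fold ranges among aged tumours.

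Eif2ak2 (Entrez gene 19106, chromosome 17, 78850504 to 78882572) encodes PKR, the kinase that halts translation on double-stranded RNA. It stood at 43.8, 54.5, 72.2 and 69.2 CPM in aged and 58.8, 51.97, 61.1 and 70.4 CPM in young tumours. The young tumour with the highest value was young 43, which was the lowest young tumour for most members. The log2 fold change was -0.007 ± 0.17, and its sign changed with the tumours included.

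Bst2 (Entrez gene 69550, chromosome 8, 71534255 to 71537472), which encodes tetherin, a membrane protein that holds budding virus at the cell surface, was the most abundant member per transcript length at a median of 234 FPKM. It stood at 68.4, 157, 201 and 87.5 CPM in aged and 246, 202, 244 and 136 CPM in young tumours. Aged 46 and aged 51 lay below all young tumours, aged 47 above young 43 only, and aged 50 near young 37. The aged and young means were 129 ± 61.7 against 207 ± 51.6 CPM (mean ± SD, n = 4 each), and the log2 fold change was -0.70 ± 0.32 (edgeR, unadjusted p = 0.0583). The Mx GTPase genes Mx1 and Mx2 were low, at 4.55 to 28.3 and 1.05 to 7.97 CPM in aged and 9.21 to 19.9 and 2.66 to 7.66 CPM in young tumours. Their log2 fold changes were -0.40 ± 0.53 and -0.55 ± 0.55. Rsad2, which encodes the radical SAM enzyme viperin, ranged over 14.4 to 47.8 CPM in aged and 27.5 to 58.98 CPM in young tumours (-0.62 ± 0.33 log2). Its neighbour Cmpk2, a mitochondrial nucleotide kinase, ranged over 7.03 to 29.96 and 12.8 to 24.9 CPM (-0.41 ± 0.43 log2).

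PARP9 forms a complex with the ubiquitin ligase DTX3L, and PARP14 adds ADP-ribose to proteins. Parp9 (Entrez gene 80285, chromosome 16, 35938470 to 35972621) stood at 25.7, 59.3, 95.1 and 38.7 CPM in aged and 67.9, 51.7, 67.9 and 53.1 CPM in young tumours. Aged 47 exceeded 2 of the young tumours, and the log2 fold change was -0.15 ± 0.33, turning to 0.07 without aged 46. Parp14 (Entrez gene 547253, chromosome 16, 35831892 to 35871518) stood at 24.7, 60.3, 105 and 47.8 CPM in aged and 71.2, 65.6, 94.2 and 72.5 CPM in young tumours. In 3 of 4 aged tumours it was below every young tumour, in aged 50 above them all, and the log2 fold change was -0.36 ± 0.34 (edgeR, unadjusted p = 0.314). Dtx3l, next to Parp9 on the opposite strand with 8% of its exonic bases overlapping, had -0.31 ± 0.30. No source used here gives the strand setting of the count, and reads of these neighbours may be mixed.

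Of the other induced genes, Samd9l (Entrez gene 209086, chromosome 6, 3372257 to 3399571), an antiproliferative factor, stood at 29.7, 57.8, 76.5 and 48.1 CPM in aged and 79.7, 61.99, 83.5 and 66.3 CPM in young tumours. In 3 of 4 aged tumours it was below every young tumour, and the log2 fold change was -0.46 ± 0.24 (edgeR, unadjusted p = 0.0827). Rtp4 (Entrez gene 67775, chromosome 16, 23520219 to 23614222), a chaperone of membrane receptors, stood at 12.6, 37.97, 70.9 and 19.3 CPM in aged and 50.4, 45.1, 52.3 and 25.3 CPM in young tumours. On TMM-scaled log2 CPM it repeated the tumour order of Irf7, with a log2 fold change of -0.32 ± 0.47. Ifi44 had -0.84 ± 0.52 log2 over 5.79 to 37.99 CPM in aged and 19.6 to 39.8 CPM in young tumours. Ifi35 had -0.41 ± 0.34 log2 over 3.47 to 12.1 and 6.72 to 11.1 CPM. Xaf1, named for its binding to the apoptosis inhibitor XIAP, had -0.005 ± 0.30 over 20.8 to 55.1 and 21.9 to 39.9 CPM. Herc6, Rtp4 and Ifi35 share 12%, 11.6% and 10.4% of their 50-base stretches with overlapping predicted genes, so their counts may be incomplete.

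**Figure D3:**
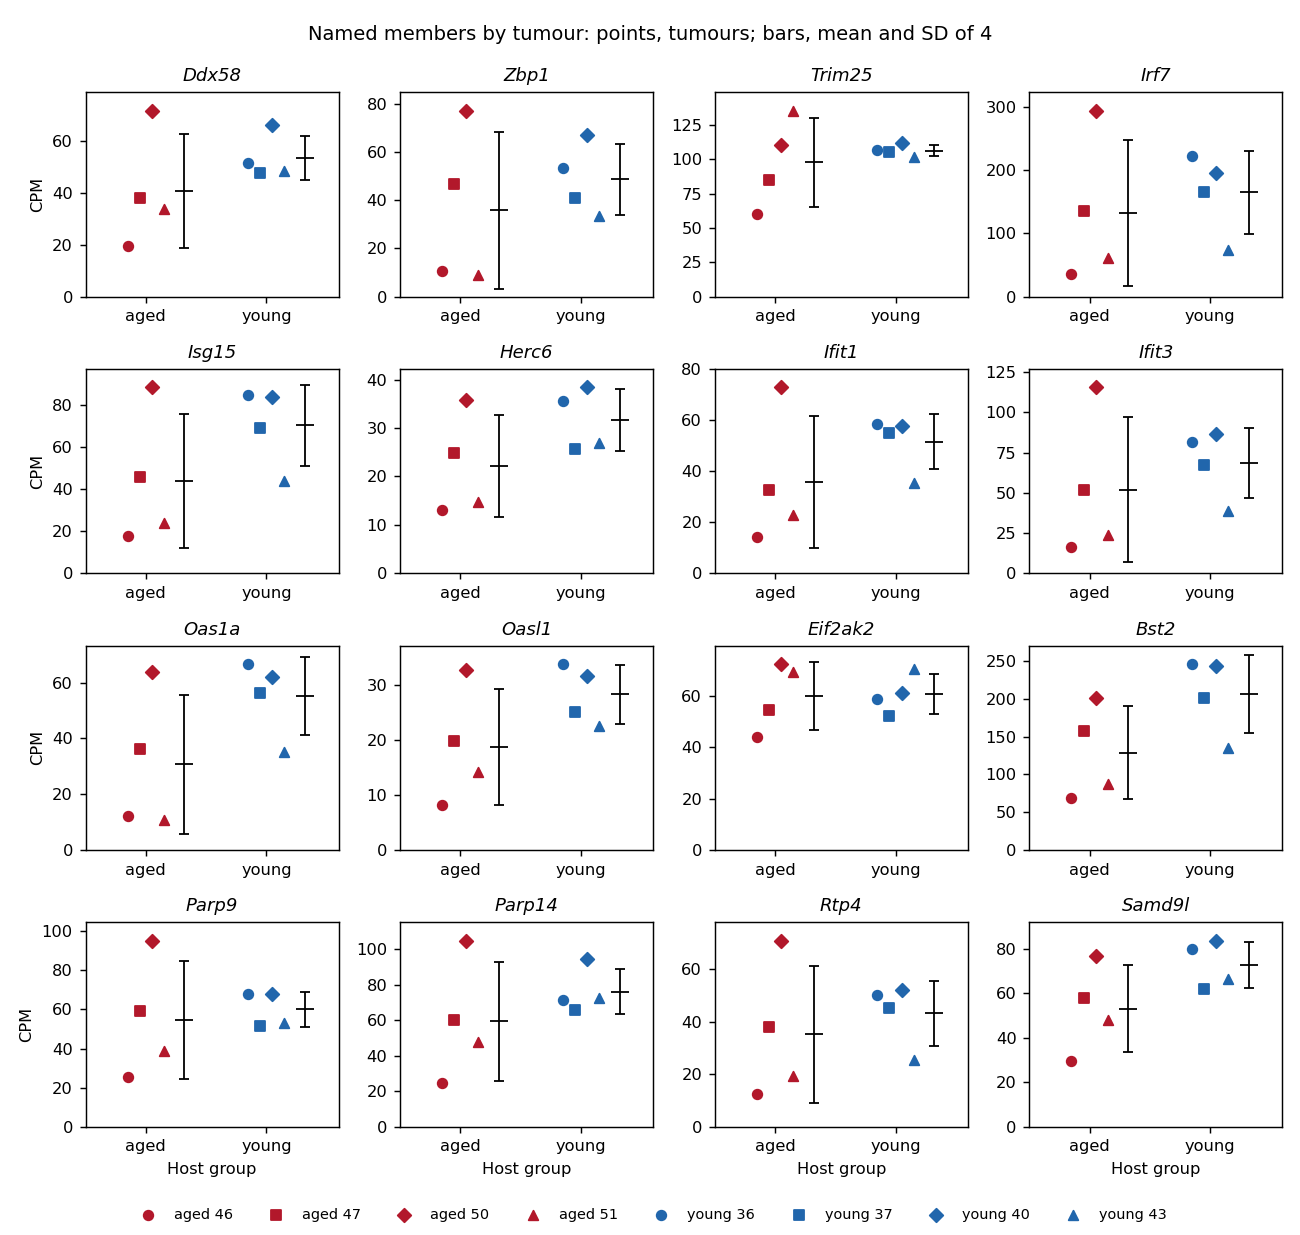
CPM of 16 members in each tumour, with the mean and SD of 4 beside each group; the symbol marks the tumour. Aged 46 and aged 51 lie low and aged 50 high in most panels, while Trim25 and Eif2ak2 show another order.

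Per transcript length, Bst2 stood above the rest at a median of 234 FPKM, followed by Irf7 at 80.96, Isg15 at 76.1, Ifit3 at 29.8, Rtp4 at 26.4 and Oas1a at 24.6 FPKM. Irf7 and Isg15 overlapped over the tumours, at 19.6 to 158 and 23.8 to 117 FPKM. The lowest were Oas2 at 2.81 and Mx2 at 2.32 FPKM.

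Most members were high and low in the same tumours. Over the 528 pairs of members the median Spearman correlation of log2 CPM was 0.905 (n = 8 tumours), with quartiles of 0.810 and 0.952 and a range from -0.119 to 1, and 406 pairs (76.9%) reached 0.8. Over all 106208025 pairs of tested genes the median was 0. The points share their tumours, and each tumour's depth and cell makeup with them. A member's median correlation with the other 32 was highest, at 0.94, for Irf9, Irf7, Ifit3, Mx1 and Rtp4. It was lowest for Eif2ak2 (0.143) and Trim25 (0.405), followed by Ifit2 and Rsad2 (0.786). Without Eif2ak2 and Trim25 the lowest of 465 pairs was 0.595. Leaving out each tumour in turn gave medians of 0.857 to 0.893.

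Against Irf7, the Pearson correlation of Rtp4 was 0.995 and its Spearman correlation 1, and Irf9, Ifit3 and Mx1 also had a Spearman correlation of 1 (n = 8). Aged 46 and aged 51 lay farthest from the median of Irf7. Without both (n = 6), Pearson's r was 0.992 for Rtp4, 0.973 for Irf9 and 0.977 for Ifit3. It went from 0.799 to 0.365 for Dtx3l, from 0.860 to 0.562 for Samd9l, from 0.858 to 0.565 for Parp14 and from 0.873 to 0.619 for Ddx58, so these 4 relations rest partly on those tumours. Trim25 (0.386) and Eif2ak2 (0.220) were low with all 8 tumours. Members with and without an ISRE core in their window had the same median correlation with the other members (0.905, 11 and 13 members), and median log2 fold changes of -0.56 and -0.41.

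**Figure D4:**
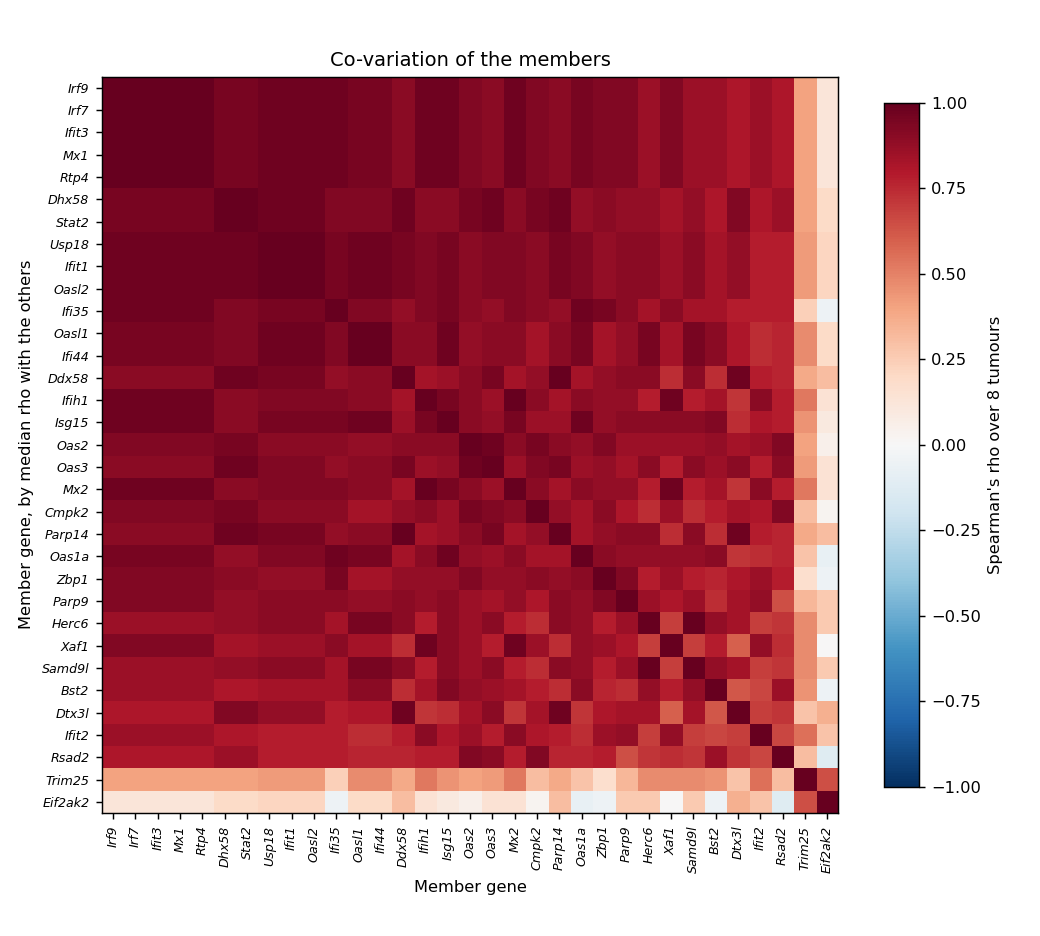
Spearman correlation over the 8 tumours between each pair of the 33 members, on log2 CPM. Nearly the whole square is high (median 0.905), and the rows of Eif2ak2 and Trim25 are pale, with median correlations of 0.143 and 0.405.

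Leukocyte transcripts had a tumour order close to that of Irf7. The mean log2 CPM of Ptprc, Laptm5, Cd53, Coro1a and Cd52 was 5.95, 7.05, 7.41 and 5.99 in aged 46, 47, 50 and 51, and 7.43, 7.06, 7.23 and 6.61 in young 36, 37, 40 and 43. All 5 had lower fitted values in aged tumours (44.7% of all genes), and none passed the test. Their summed level ranged over 336 to 960 CPM in aged and 588 to 908 CPM in young tumours, and no marker was at 0. Lists of single leukocyte types went both ways. Fitted values were lower in aged tumours for 7 of 9 macrophage and 3 of 4 NK cell markers. They were higher for 5 of 6 T cell, 3 of 4 B cell and 4 of 5 neutrophil markers. The same held for 4 of 7 plasmacytoid and 3 of 5 conventional dendritic cell markers. Irf7 and the leukocyte mean correlated with Pearson's r = 0.962 (exact permutation p = 4.96e-05, Benjamini-Hochberg over 14 marker lists 0.000694). Spearman's rho was 0.976 (exact permutation p = 0.000397, adjusted 0.00556). Without aged 46 and aged 51, r was 0.978, and with each host group's mean subtracted it was 0.962.

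Of the 14 marker lists, 8 passed the adjusted threshold against Irf7 by Pearson's r and 7 by Spearman's rho. The NK cell list had r = 0.930 (exact permutation p = 0.00117, adjusted 0.00816) and rho = 0.905 (exact permutation p = 0.00456, adjusted 0.0213). Its markers were low, summing to 0.898 to 7.41 CPM in aged and 2.41 to 5.44 CPM in young tumours. B cell markers were low as well, at 2.26 to 20.8 and 4.42 to 14.5 CPM. The macrophage list had r = 0.901 (exact permutation p = 0.00474, adjusted 0.0133), but its rho of 0.690 missed the threshold (exact permutation p = 0.0694, adjusted 0.121), and r was 0.691 without aged 46 and aged 51. T cell, B cell, conventional and plasmacytoid dendritic cell lists had r of 0.850 to 0.885 (largest exact permutation p = 0.0106, adjusted 0.0186), and the fibroblast list 0.836 (exact permutation p = 0.00427, adjusted 0.0133). Without those tumours r was 0.621 to 0.756 for these lymphoid and dendritic lists and 0.499 for fibroblasts. Epithelial (r = 0.531, exact permutation p = 0.175), endothelial (0.257, p = 0.54), neutrophil (0.210, p = 0.619) and skeletal muscle markers (-0.02, p = 0.971) did not pass, nor did the normal prostate and seminal vesicle lists (0.556, p = 0.153, and 0.581, p = 0.132). Without aged 46 and aged 51, r was 0.808 for the epithelial, 0.761 for the normal prostate and 0.699 for the seminal vesicle list. With host group means subtracted, the epithelial list had r = 0.714.

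**Figure D5:**
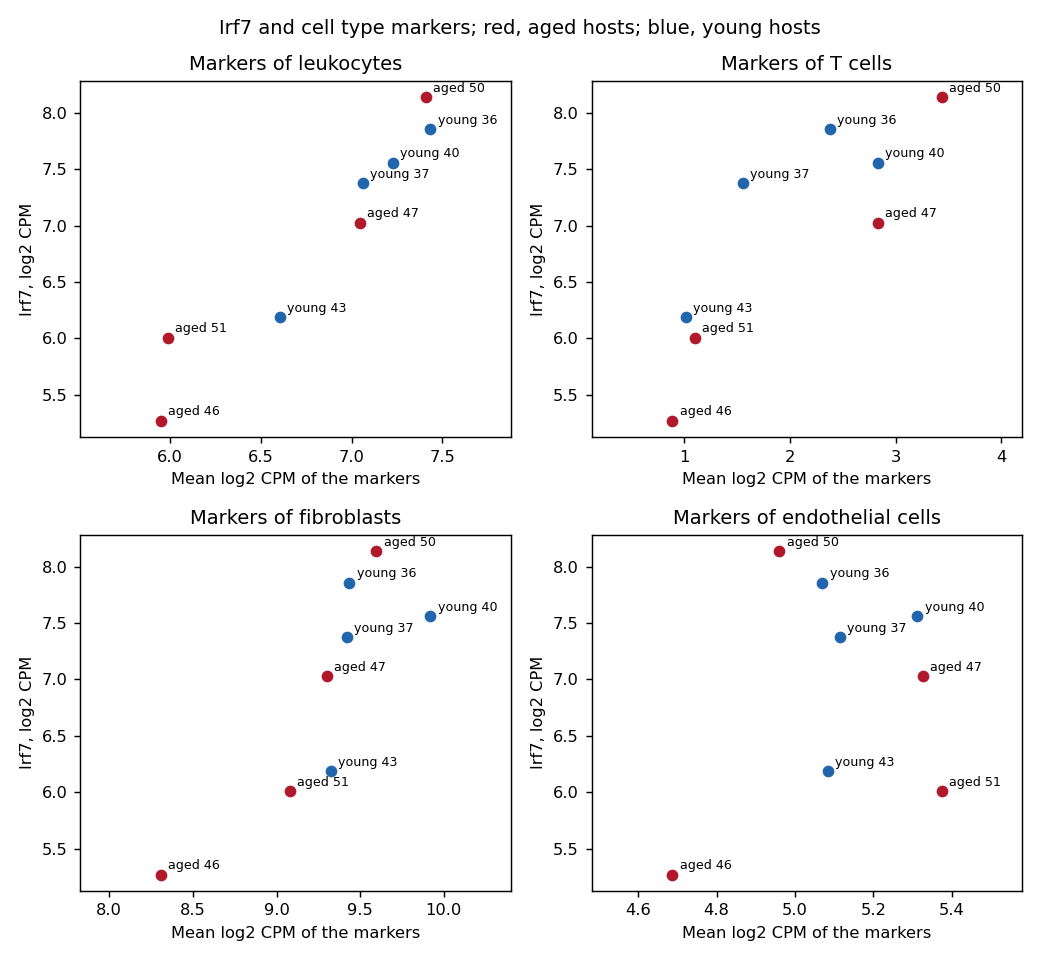
Irf7 (log2 CPM) against the mean log2 CPM of leukocyte, T cell, fibroblast and endothelial markers; each point is a tumour, named beside it. The leukocyte panel is close to a line (r = 0.962), the endothelial panel is scattered (r = 0.257).

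With the leukocyte mean as a covariate beside host age, 22 of 33 members had a lower fitted value in aged tumours (51.3% of all genes) and the median log2 fold change was -0.11. EdgeR called 0 of them, and 3 had an unadjusted edgeR p under 0.05, against 10.1% of all genes (4.19% lower in aged). By edgeR, these were Oas1a (-0.45 ± 0.13, unadjusted p = 0.00703), Bst2 (-0.32 ± 0.12, unadjusted p = 0.0216) and Ifi44 (-0.41 ± 0.17, unadjusted p = 0.0373). Irf7 went from -0.35 to 0.20, Irf9 from -0.21 to 0.16 and Rtp4 from -0.32 to 0.12. Whether members are themselves expressed in leukocytes or in cancer cells in these tumours was not tested.

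The genes that signal to and from the members had a median difference nearer to 0. Of 53 pathway genes, 33 passed the filter, and 22 had lower (44.7% of all genes) and 11 higher fitted values in aged tumours. The median log2 fold change was -0.12, and edgeR called 0, with 1 at an unadjusted p under 0.05 (4.99% of all genes). DESeq2 and limma voom also called 0 of them, with 1 and 4 at an unadjusted p under 0.05 (6.02% and 12.1% of all genes). None of the 18 type I interferon ligand genes passed the filter. The 13 Ifna genes and Ifnab had 0 fragments in all 8 tumours, each below the 3-fragment limit of 0.084 to 0.111 CPM. Ifnb1, the gene of interferon beta, had 0, 1, 1 and 0 fragments in aged and 4, 4, 3 and 0 in young tumours. These counts lie near or below the 3-fragment limit, and differences in ligand transcripts were not tested. Ifng, the gene of interferon gamma, ranged over 0.0929 to 1.23 CPM in aged and 0.148 to 0.624 CPM in young tumours (0.54 ± 0.76 log2).

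Of the receptor subunits, Ifnar2 had the smallest p of the pathway, at 56.7, 77.3, 81.0 and 52.8 CPM in aged and 89.6, 85.1, 90.8 and 77.3 CPM in young tumours. The log2 fold change was -0.35 ± 0.14 (edgeR, unadjusted p = 0.0313, adjusted 0.924). Ifnar1 stood at 84.4, 111, 112 and 91.1 CPM in aged and 106, 112, 125 and 114 CPM in young tumours (-0.19 ± 0.10 log2). Its groups did not overlap after TMM scaling but did as deposited CPM. It was the only pathway gene without overlap after TMM scaling, against 3.66% of all genes. Irf1 had -0.44 ± 0.26, Tmem173, which encodes the DNA-sensing adaptor STING, -0.31 ± 0.15, and Socs1, an inhibitor of JAK kinases, -0.51 ± 0.29. Jak1 and Tyk2 had 0.05 ± 0.14 and -0.14 ± 0.14.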

How the data were processed

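RNA from 8 tumours was sequenced, 4 per host group, from 1 µg of total RNA by TruSeq mRNA libraries read as 50 bp paired ends, per the labels' protocols. Alignment to GRCm38 (mm10) involved TopHat2 2.0.12, with bcl2fastq and Picard 2.7.1 also listed, per the submitters' processing notes. Not given in the sources used here were the counting program, the annotation and the strand. Per the file headers, the authors deposited a fragment count, an FPM (here CPM), an FPKM and a transcript size for each of 24028 genes. The deposited CPM is the count per 1 M counted fragments, and the deposited FPKM is that CPM per kilobase of transcript. 27 symbols that were dates or blank were restored by Entrez number.

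The members and gene lists were chosen with earlier results of these data known. Host age was tested on the counts by edgeR 4.0.16, under R 4.3.3 (filterByExpr, minimum count 10, minimum total 15, TMM, robust quasi-likelihood, host age as the only term), with Benjamini-Hochberg adjustment over 14575 genes and a threshold of 0.05. Standard errors are the fold change over the square root of F. Log2 CPM used a prior count of 2. Correlations used exact permutation of 40320 pairings across host groups. Values with host group means subtracted are given without a p-value, since such pairings mix residuals of groups with unlike spread. The p-values given for all 8 tumours share this limit, as the SD of Irf7 log2 CPM was 1.25 in aged and 0.733 in young tumours. DESeq2 1.42.0, limma 3.58.1 (voom with sample weights), other scalings and filters, a leukocyte covariate and each tumour left out were alternatives, and leaving out 3 tumours was added after seeing the data. On simulated counts with known changes, the main fit recovered 36 of 100 genes changed 2-fold and 65 of 100 changed 4-fold, with 6 false calls. Most 2-fold changes were thus missed, so 0 members called does not show that no member differs. P-values measure the spread between tumours of separate mice. Limits of 3 fragments cover counting error only. No library repeated another, since chi-square over its degrees of freedom was at least 42.6 for every pair.

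Values in every tumour are given for the most abundant member per length and the member with the smallest p in each role, and for the 2 members with the lowest median correlation with the others. Outside the set the rule names the pathway gene with the smallest p per role, Ifnb1, Ifnar1, Ifnar2, Irf1 and the 10 genes most like the members' mean, and 1 gene that the rule names is not reported here. Other genes, such as Jak1, Tyk2, Mov10, Ifit3b and Oas1g, were chosen after their values were seen. Shared 50-base stretches and overlapping exons are from GENCODE vM21 on GRCm38.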

Additional observations from a re-analysis of the deposited data

Results flagged for a closer look

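Among the young tumours, Ifit1 in young 43 stood apart at 35.4 CPM, with the other 3 between 55.1 and 58.6 CPM. The gap to its nearest neighbour was 0.851 of the range of the group, above the critical value of Dixon's test for 4 samples. Of 76 groups of 4 tumours checked, this was the only one, while chance marks about 1 in 20. The groups share the same 8 tumours, so they are not 76 separate checks. Young 43 was also the lowest young tumour for 26 of 33 members.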

How the results depend on the processing

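No paired analysis was possible because the labels give every mouse a number of its own. The number of all genes called, 0 by edgeR, was 43 by DESeq2 and 9 by limma voom, and no member was among those calls. Over 8 fits that each left out 1 tumour, 0 to 0 genes and members were called, 26 to 33 members were lower in aged tumours and their median log2 fold change ran from -0.94 to -0.19. With the leukocyte covariate the log2 fold change was 0.20 for Irf7, 0.032 for Ifit3, 0.14 for Parp9, 0.12 for Rtp4 and 0 for Eif2ak2 to 2 decimals, and by DESeq2 it was 0.001 for Eif2ak2. With 1 tumour left out it ran from -0.53 to 0.066 for Parp9, -0.11 to 0.10 for Eif2ak2 and -0.34 to 0.049 for Trim25. The cause of these changes was not tested. Of 272 alternative values of the 16 named members, 260 kept their sign and 12 changed it. No named member was called in the main fit or in any alternative, so the count speaks for the sign only. At these depths the type I interferon ligand genes did not pass the filter, while every member had at least 34 fragments in every tumour.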

Other observations

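Interferon-induced genes outside the set mostly had lower fitted values as well. Of 40 listed genes, 39 passed the filter and 35 had lower fitted values in aged tumours (44.7% of all genes). Their median log2 fold change was -0.33. EdgeR called 0, with 3 at an unadjusted p under 0.05 (4.99% of all genes) and a smallest adjusted p of 0.924. DESeq2 and limma voom called 0, with 4 and 9 at an unadjusted p under 0.05 (6.02% and 12.1% of all genes). Mov10, an RNA helicase, was the only one whose groups did not overlap, against 3.66% of all genes. It stood at 32.05, 32.2, 42.5 and 18.7 CPM in aged and 44.1, 49.5, 50.8 and 60.96 CPM in young tumours (-0.71 ± 0.21 log2, edgeR, unadjusted p = 0.00876). Of 18 genes that respond mainly to interferon gamma, 17 passed the filter and 14 had lower fitted values (44.7% of all genes). Their median was -0.20. EdgeR called 0, with 1, Cxcl10 (-0.91 ± 0.39), at an unadjusted p under 0.05 (4.99% of all genes). DESeq2 and limma voom called 0, with 2 and 1 at an unadjusted p under 0.05 (6.02% and 12.1% of all genes).

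Among the 13300 tested genes outside every list whose log2 CPM averaged 0 or more, Pydc4, a pyrin-domain gene, followed the members' mean log2 CPM most closely (Pearson's r = 0.994, n = 8 tumours). It was followed by Stap1 (0.988), Pltp (0.982), Actr3 (0.981), Parp12 (0.980), Angpt4 (0.979), Cdh10 (0.979), Gm5431 (0.978), Selplg (0.976) and Nol4l (0.976). These are the 10 highest of 13300 values and are given as a description, with no test.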
